A study of Homo sapiens with 2 samples.

Results

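Peaks of ING5 binding were crowded on 2 stretches of the HepG2 genome, the short arm of chromosome 5 and a 2 Mb stretch at 11p15.4, and both are described here peak by peak and gene by gene. A peak belonged to the chr5 block when its summit lay on chromosome 5 between base 1 and base 46000000, and to the chr11 block when it lay on chromosome 11 between bases 3000001 and 5000000 (GRCh38). The blocks held 472 of the 8608 peaks of the list, 360 on chromosome 5 and 112 on chromosome 11. The rest of chromosome 5 held 301 peaks and the rest of chromosome 11 held 420.

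The study made 1 chromatin immunoprecipitation library with a Proteintech antibody against ING5, and 1 input DNA library without antibody. Both came from untreated HepG2 cells, an established human liver cancer line. The ChIP library entered peak calling with 12416135 fragments and the input with 9915132, and the input entered only as the control of the 1 peak list. With 1 library per group and peaks that are not replicates of each other, no difference below was tested, and every interval covers counting error only.

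ING5 is a member of the inhibitor of growth family. Its plant homeodomain finger binds the methylated tail of histone H3, and the protein is a subunit of histone acetyltransferase complexes of the MYST family. The methylation it reads is found at the transcription start sites (TSSs) of active genes.

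The promoters of 5 genes show the range of sequence under the blocks. Each window runs from 250 bases before to 50 bases after the RefSeq start of the gene (GRCh38.p14), is printed 5′ to 3′ on the strand of the gene, and has its CpG dinucleotides in capitals. MRPS30 (chr5:44808697-44808996, plus strand) had the tallest promoter peak of the chr5 block, AHRR (chr5:321464-321763, plus strand) the highest fold enrichment at a promoter there, and NUP98 (chr11:3797497-3797796, minus strand) the tallest peak of the chr11 block. CTNND2 (chr5:11904397-11904696, minus strand) is shown as a CpG-dense promoter with no peak, and OR51E1 (chr11:4643732-4644031, plus strand) as a CpG-poor olfactory receptor promoter with one.
MRPS30: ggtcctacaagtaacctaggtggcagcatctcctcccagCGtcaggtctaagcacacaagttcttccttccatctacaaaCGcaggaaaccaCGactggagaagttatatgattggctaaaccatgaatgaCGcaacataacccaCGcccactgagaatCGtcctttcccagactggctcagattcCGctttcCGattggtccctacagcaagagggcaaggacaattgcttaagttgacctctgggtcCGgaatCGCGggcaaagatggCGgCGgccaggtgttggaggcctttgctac
AHRR: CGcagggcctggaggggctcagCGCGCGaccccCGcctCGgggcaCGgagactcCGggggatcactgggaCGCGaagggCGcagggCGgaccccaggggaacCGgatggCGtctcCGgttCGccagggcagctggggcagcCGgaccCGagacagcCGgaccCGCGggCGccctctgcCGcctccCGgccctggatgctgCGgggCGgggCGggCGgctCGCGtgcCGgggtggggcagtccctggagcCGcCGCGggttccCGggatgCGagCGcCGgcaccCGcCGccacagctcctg
NUP98: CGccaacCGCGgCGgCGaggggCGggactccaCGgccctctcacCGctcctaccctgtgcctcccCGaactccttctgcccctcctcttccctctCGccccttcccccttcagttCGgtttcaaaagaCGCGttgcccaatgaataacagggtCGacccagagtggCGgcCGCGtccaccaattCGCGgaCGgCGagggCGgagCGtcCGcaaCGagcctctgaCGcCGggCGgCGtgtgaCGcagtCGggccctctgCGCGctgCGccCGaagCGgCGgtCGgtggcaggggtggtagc
CTNND2: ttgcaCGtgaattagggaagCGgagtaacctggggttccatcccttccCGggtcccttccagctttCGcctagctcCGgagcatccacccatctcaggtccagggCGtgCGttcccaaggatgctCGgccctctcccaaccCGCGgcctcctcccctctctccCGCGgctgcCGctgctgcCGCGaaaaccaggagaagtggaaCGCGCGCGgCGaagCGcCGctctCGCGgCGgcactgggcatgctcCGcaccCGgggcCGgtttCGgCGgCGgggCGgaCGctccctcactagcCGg
OR51E1: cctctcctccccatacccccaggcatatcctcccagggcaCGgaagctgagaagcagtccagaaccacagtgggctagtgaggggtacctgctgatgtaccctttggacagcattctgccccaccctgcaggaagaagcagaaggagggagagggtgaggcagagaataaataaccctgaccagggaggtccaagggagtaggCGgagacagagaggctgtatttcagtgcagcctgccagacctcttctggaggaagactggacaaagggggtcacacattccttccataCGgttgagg

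The 5 windows held 13, 40, 38, 34 and 3 CpG dinucleotides in the order printed. The summit of the strongest promoter peak lay outside the window in all 4 genes that had one, by 468 bases at MRPS30, 736 at AHRR, 165 at NUP98 and 32 at OR51E1. AHRR also had another, lower summit inside its window, at base 10, with 23 fragments.

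Peak density in the chr5 block was 7.83 peaks per Mb (95% Poisson interval 7.04 to 8.68), against 2.22 (1.98 to 2.49) on the rest of chromosome 5. The chr11 block held 56 peaks per Mb (46.1 to 67.4), against 3.16 (2.86 to 3.47) on the rest of chromosome 11. Density is what drew attention to these stretches, so these rates describe how they were chosen. Among the 1708 bins of 1 Mb with at least 1 peak, chromosome 11 from 3 to 4 Mb held the most (98), followed by chromosome 5 from 0 to 1 Mb (89) and from 1 to 2 Mb (64). The next bin was on chromosome 9, with 56.

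The crowding was uneven along 5p. The first 5 Mb held 178 of the 360 peaks, the stretch from 5 to 30 Mb held 93 and the stretch from 30 to 46 Mb held 89. No peak fell in 13 of the 46 bins of 1 Mb, and the widest gap between neighbouring summits was 4.73 Mb, from 21496304 to 26228860. Density was 35.6 peaks per Mb in the first 5 Mb, 3.72 from 5 to 30 Mb and 5.56 from 30 to 46 Mb. Each was above the 2.22 of the rest of chromosome 5, but 5p was chosen for its density, so these rates are description only. Steps of 5 Mb held 6.2 and 9.4 peaks per Mb from 5 to 15 Mb, and 1.2, 1.2 and 0.6 from 15 to 30 Mb. Crowding on 5p was strongest at the tip, weaker beyond it and not found all along the arm.

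The limits of the blocks fell in sparse sequence. Above the limit of the chr5 block, the first peak outside was at base 52800469 near PELO, with a pileup of 18 fragments and a 9.25-fold enrichment. At the lower limit on chromosome 11, the first peak inside was at 3108608 in OSBPL5 (20 fragments, 5.08-fold), and the last one outside was at 2401257 near TSSC4 (10 fragments, 4.88-fold). At the upper limit, the last peak inside was at 4653005 in OR51E1 (19 fragments, 3.55-fold), and the first one outside was at 6319386 near CAVIN3 (13 fragments, 7.55-fold). The stretch from 2 to 3 Mb of chromosome 11 held 1 peak and the stretch from 5 to 6 Mb held 0.

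**Figure D1:**
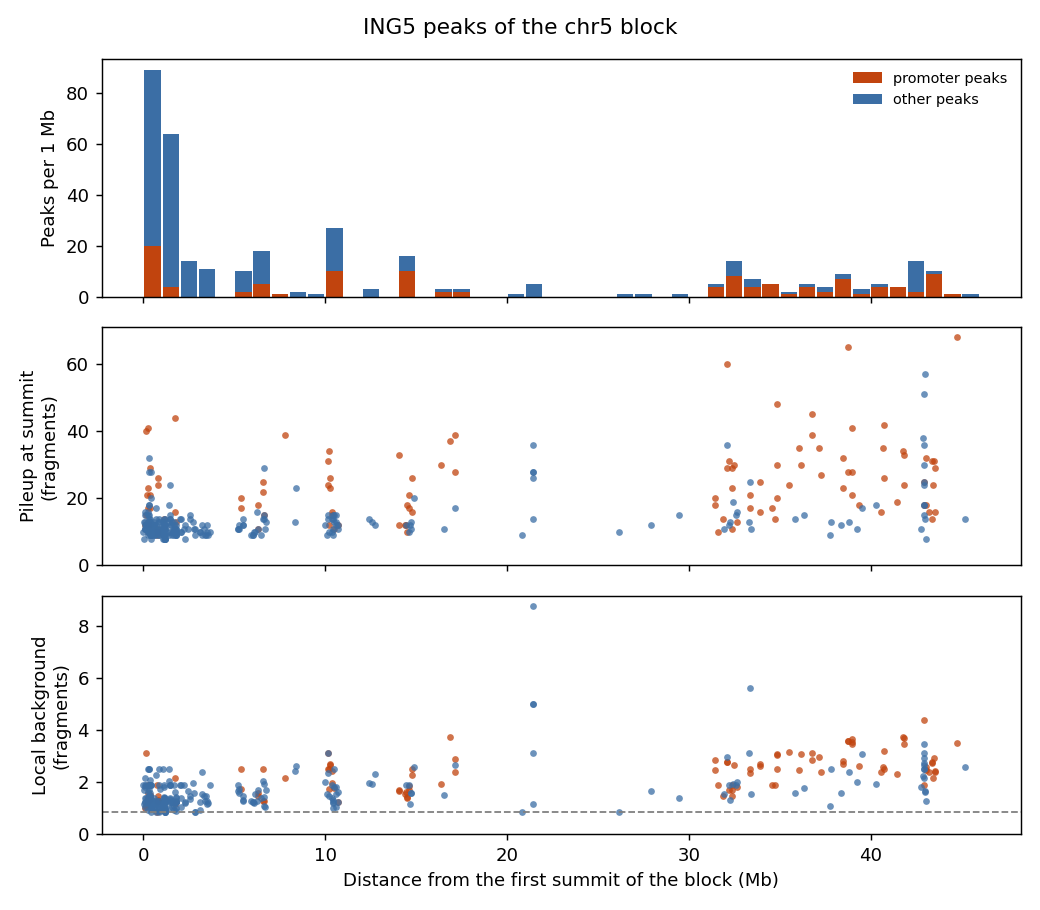
Peaks of the chr5 block by distance of the summit from the first summit (x axis, Mb): number per 1 Mb (top), pileup in fragments (middle) and local background in fragments (bottom), promoter peaks in orange and other peaks in blue, with a dashed line at the lowest background of the list, 0.853. The first 5 Mb hold 178 of the 360 peaks, at a median pileup of 11, and the tallest peaks, up to 68 fragments, lie beyond 30 Mb. Median background beyond 30 Mb is 2.50, but the peak of 57 fragments there stands over 1.62. The highest background of the block, 8.77, lies near 21.5 Mb.

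Peaks of the blocks stood over more local background than peaks elsewhere on the same chromosomes. Local background is the number of fragments the peak caller expected at a summit without binding, taken from (pileup + 1) / fold enrichment − 1. Its lowest value is a genome-wide 0.853, and any higher value comes from the input reads around the summit. The median was 1.60 fragments (1.49 to 1.71) in the chr5 block, against 0.853 on the rest of chromosome 5. It was 2.90 (2.68 to 3.13) in the chr11 block, against 0.853 on the rest of chromosome 11.

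A background above the lowest value was seen at 348 of 360 peaks of the chr5 block (96.7%), against 110 of 301 (36.5%) on the rest of chromosome 5. The chr11 block had it at 109 of 112 peaks (97.3%), against 128 of 420 (30.5%) on the rest of chromosome 11, and over all chromosomal peaks the share was 39.5%. A background of at least 1.5 times the lowest value, met by 10.6% of all chromosomal peaks, was seen at 68.1% of the chr5 block against 4.32% of the rest of chromosome 5. The same held for 91.1% of the chr11 block and 8.33% of the rest of chromosome 11.

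The list does not name the input window behind a background, so it was inferred from the step size that fitted the value. A value that fits the 1 kb step also fits the 10 kb step and was counted as 1 kb. Some values counted as 1 kb may therefore belong to the 10 kb window. Within the chr5 block, the background was assigned to the 10 kb window at 192 peaks, the 1 kb window at 66, the summit at 90, and the genome-wide value at 12. The corresponding numbers in the chr11 block were 46, 28, 35 and 3. Among peaks assigned to the 10 kb window, the median was 1.57 in the chr5 block (n = 192) and 0.962 on the rest of chromosome 5 (n = 50). It was 2.80 in the chr11 block (n = 46) and 0.985 on the rest of chromosome 11 (n = 47). At the peaks so assigned, the input thus held more reads per base over 10 kb and not at the summits alone. At the other peaks the input level over 10 kb cannot be read from the list. The part of this raised input level in the density of the blocks was not tested.

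Taken in the stretches named above, background, pileup and the share of promoter peaks of 5p were all higher farther from the tip. Median background was 1.26 fragments (1.25 to 1.34) in the first 5 Mb, 1.71 (1.58 to 1.88) from 5 to 30 Mb and 2.50 (2.41 to 2.70) from 30 to 46 Mb. Median pileup was 11, 14 and 21 fragments in the same order. Promoter peaks made up 13.5% (8.83 to 19.4), 34.4% (24.9 to 45.0) and 62.9% (52.0 to 72.9) of the peaks. The intervals of the first and last stretch did not overlap for any of these measures. In steps of 5 Mb the rise was not steady. Median background was 2.54 at 15 to 20 Mb, 4.07 at 20 to 25 Mb and 1.39 at 25 to 30 Mb. Promoter peaks made up 66.7% of 6, 0% of 6 and 0% of 3 there. Listed peaks had passed a p cutoff against this background, so pileup was not independent of it.

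Median pileup was higher in the chr11 block, at 20 fragments (18 to 21) against 12 (11 to 12) on the rest of chromosome 11. In the chr5 block it was 13 (12 to 14) against 12 (11 to 13) on the rest of chromosome 5, and these intervals overlapped. At least 20 fragments were reached by 85 peaks of the chr5 block (23.6%) against 29 on the rest of chromosome 5 (9.63%), and by 59 of the chr11 block (52.7%) against 38 on the rest of chromosome 11 (9.05%). The share over all chromosomal peaks was 10.4%. In the first 5 Mb of 5p the median was 11 fragments and 7.87% of peaks reached 20, both below the values of the rest of chromosome 5. Median fold enrichment was 5.38 (5.20 to 5.58) in the chr5 block against 6.47 (6.38 to 7.01) on the rest of chromosome 5, and 5.13 (4.80 to 5.50) in the chr11 block against 6.47 (6.22 to 6.74) on the rest of chromosome 11. At promoter peaks alone, fold enrichment was 7.30 (6.32 to 7.75) in the chr5 block against 6.57 (6.46 to 7.01) on the rest of chromosome 5, with overlapping intervals and the opposite direction. In the chr11 block promoter peaks had 5.83 (4.27 to 6.86) against 6.63 (6.47 to 7.01) on the rest of chromosome 11, also with overlapping intervals. Enrichment under 4-fold was seen at 26 peaks (7.22%) of the chr5 block against 5 (1.66%), and at 25 (22.3%) of the chr11 block against 10 (2.38%). On the other chromosomes it was seen at 94 of 7396 peaks (1.27%). The lowest pileup of all chromosomal peaks was 7 fragments, which is above 4-fold over the lowest background. A peak under 4-fold thus needs a raised background, so these shares restate how common that was. Fold enrichment divides by the background, so the measures are not independent of each other. A listed peak also had to reach p at most 1e-05 against its background, so a higher background calls for a higher pileup. The part of this cutoff in the pileups of the blocks was not tested.

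In the full list, most peaks of the blocks lay away from promoters. A promoter peak is one with a protein-coding TSS at most 1000 bp from its summit, and 76% of all chromosomal peaks met this. In the chr5 block 112 peaks did (31.1%, exact interval 26.4 to 36.2), against 260 of 301 (86.4%, 82.0 to 90.0) on the rest of chromosome 5. In the chr11 block 27 peaks did (24.1%, 16.5 to 33.1), against 346 of 420 (82.4%, 78.4 to 85.9) on the rest of chromosome 11. Introns took 27.2% of the chr5 block against 5.98% of the rest of the chromosome, and intergenic sequence took 36.4% against 4.65%. In the chr11 block, introns and intergenic sequence took 34.8% each, against 8.57% and 7.14% on the rest of chromosome 11. Promoter peaks were the majority in both blocks among the 1000 most significant peaks. In the chr5 block they made up 76.3% of 59, against 95.3% of 43 on the rest of chromosome 5. In the chr11 block they made up 70% of 10, against 85.4% of 41 on the rest of chromosome 11. Above the median −log10 p, the share was 59.0% in the chr5 block and 31.0% in the chr11 block. Above the median fold enrichment it was 62.7% and 37.5%, so promoter peaks stayed a minority of the chr11 block in these lists.

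Spacing restates the density by which the blocks were chosen and is given as a description. The median distance to the nearest summit was 2321 bp in the chr5 block against 20450 bp on the rest of chromosome 5. A neighbour within 5 kb, which 42.4% of all chromosomal peaks had, was found for 61.4% of the chr5 block against 40.5% of the rest of chromosome 5, and for 80.4% of the chr11 block against 45.95% of the rest of chromosome 11.

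Promoter peaks were taller than other peaks inside both blocks, and wider in the chr5 block. In the chr5 block, median pileup was 21.5 fragments (18 to 25) at promoter peaks and 12 (11 to 12) at other peaks, and median width was 503.5 bp (359 to 645) and 268 bp (252 to 293). In the chr11 block, pileup was 24 (22 to 29) at promoter peaks and 18 (15 to 20) at other peaks, and width was 439 bp (326 to 838) and 341 bp (277 to 457), with overlapping intervals. In the first 250 kb from 3 Mb, which held 55 of the 112 peaks, promoter peaks had a median width of 453 bp and other peaks 472 bp. The gap was narrower outside the blocks, with 12 fragments at promoter peaks and 10 at other peaks on the rest of chromosome 5, and 12 and 11 on the rest of chromosome 11.

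Local background was higher at promoter peaks when each block was taken as a whole. It was 2.38 fragments (1.88 to 2.50) at promoter peaks and 1.39 (1.31 to 1.49) at other peaks of the chr5 block, and 4.02 (3.04 to 4.55) and 2.67 (2.53 to 2.98) in the chr11 block. On the rest of both chromosomes it was 0.853 for both classes. Fold enrichment, which takes this background into account, was 7.30 (6.32 to 7.75) at promoter peaks and 5.05 (4.93 to 5.22) at other peaks of the chr5 block, and 5.83 (4.27 to 6.86) and 5.05 (4.57 to 5.45) in the chr11 block. The intervals of the chr11 block overlapped for fold enrichment and not for pileup.

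**Figure D2:**
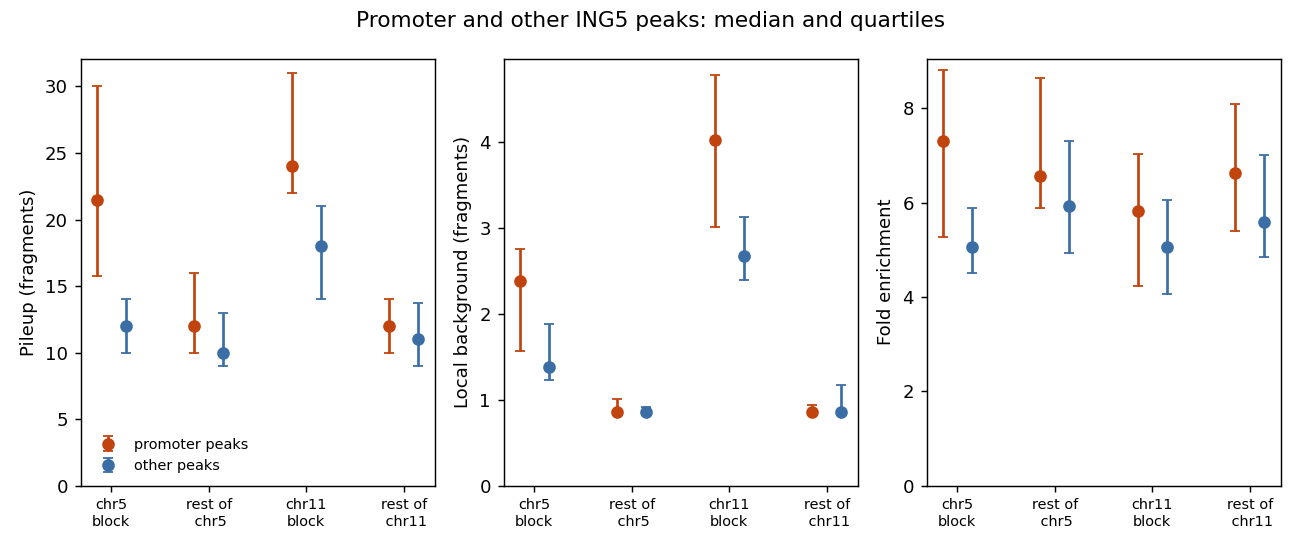
Median (point) and quartiles (bars) over peaks of pileup, local background and fold enrichment for promoter peaks (orange) and other peaks (blue) of each block and of the rest of its chromosome. Promoter peaks of the chr5 block reach a median of 21.5 fragments and 7.30-fold, against 12 fragments and 6.57-fold on the rest of chromosome 5. Those of the chr11 block reach 5.83-fold, against 6.63-fold on the rest of chromosome 11. The intervals of both fold comparisons overlap.

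The classes of the chr5 block were also compared within stretches of the arm, because promoter peaks were more frequent far from the tip. Within the first 5 Mb, background was 1.33 at promoter peaks and 1.25 at other peaks, and pileup was 15.5 and 11. From 5 to 30 Mb, background was 1.88 and 1.60, and pileup 19 and 12. From 30 to 46 Mb, background was 2.65 and 1.99, and pileup 25.5 and 15. Promoter peaks were thus taller within each stretch as well.

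At 11p15.4 the difference in background was small within most steps of 250 kb counted from 3 Mb. Of the 27 promoter peaks, 11 lay in the step from 3750001 to 4000000, where background was 4.38 at promoter peaks and 4.12 at other peaks. It was 2.92 and 2.76 in the first step, which held 9 promoter peaks, and 3.08 and 2.80 in the step from 4500001 to 4750000, which held 3. The other steps held 1 or 2 promoter peaks each, with 4.47 and 1.26, 3.84 and 2.50, and 3.04 and 3.13 in order along the chromosome. Median pileup was higher at promoter peaks in each of the 6 steps with peaks, with 24 and 20 in the first step and 24 and 20 in the step from 3750001.

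Runs of summits at most 200 kb apart with at least 5 peaks were taken as sub-blocks. The chr5 block had 14 of them with 309 peaks (85.8%), and the rest of chromosome 5 also had 14, with 124 peaks (41.2%). The largest sub-block held 120 peaks in the chr5 block, against 22 peaks in the largest run on the rest of chromosome 5. The chr11 block had 2, which took in all 112 peaks, and the larger held 106. The rest of chromosome 11 had 21 runs, the largest with 40 peaks.

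The largest sub-block of 5p ran from its first summit at 81614 near PLEKHG4B to 1279327 in TERT. It held 120 peaks over 1198 kb, 21 of them at promoters, with a median of 11 fragments over a background of 1.25. Its 20 genes include SDHA, PDCD6, AHRR, EXOC3, BRD9, TRIP13 and the transporter genes SLC9A3, SLC12A7, SLC6A19 and SLC6A18. The next one held 33 peaks from LPCAT1 to IRX4, 3 of them at promoters. Another 14 peaks from IRX4 to IRX2 and 11 around IRX1 included no promoter peak. IRX1, IRX2 and IRX4 encode Iroquois homeodomain transcription factors, and of these IRX4 had a promoter peak, with 13 fragments (6.22-fold).

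Sub-blocks farther along the arm held at most 28 peaks, and most had a larger share of them at promoters. Between 5 and 15 Mb they held 9 peaks around ICE1, 19 from MED10 to TENT4A, 28 from ATPSCKMT to DAP and 14 from TRIO to ANKH, of which 2, 5, 10 and 8 were at promoters. Beyond 30 Mb they held 16 peaks from PDZD2 to NPR3, 5 around TARS1, 5 from RAI14 to DNAJC21, 6 from OSMR to RICTOR and 24 from SELENOP to NNT. Of these, 9, 2, 5, 5 and 11 were at promoters, so every peak from RAI14 to DNAJC21 was one.

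One sub-block of 5p differed in kind. At 21.5 Mb, 5 peaks lay within 12.1 kb (summits 21484209 to 21496304) with no protein-coding gene start inside, the nearest gene being CDH12. Their pileups were 36, 26, 14, 28 and 28 fragments, over backgrounds of 5.01, 8.77, 1.18, 5.01 and 3.13. The second of them, chr5:21485757-21485984, had the highest background of the block and a 2.76-fold enrichment, the lowest of all chromosomal peaks. Its background was assigned to the summit window. The first summit lay 198 bases from the start of an annotated processed pseudogene.

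At 11p15.4, the larger sub-block ran from 3108608 in OSBPL5 to 4190990 near SSU72L5, and the smaller held 6 peaks from 4569421 near OR52I2 to 4653005 in OR51E1. Taken in steps of 250 kb from 3 Mb, the block held 55, 13, 13, 17, 8, 0, 6 and 0 peaks. Median background in the 6 steps with peaks was 2.86, 1.26, 2.54, 4.38, 3.08 and 3.03 fragments. The step from 3250001 to 3500000 thus held 52 peaks per Mb over a background of 1.26 (1.08 to 2.50). It was 2.86 (2.64 to 3.13) in the step before it and 2.54 (1.25 to 2.78) in the step after it, an overlapping interval. At 11 of the 13 peaks of the step the background was still above the lowest value.

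**Figure D3:**
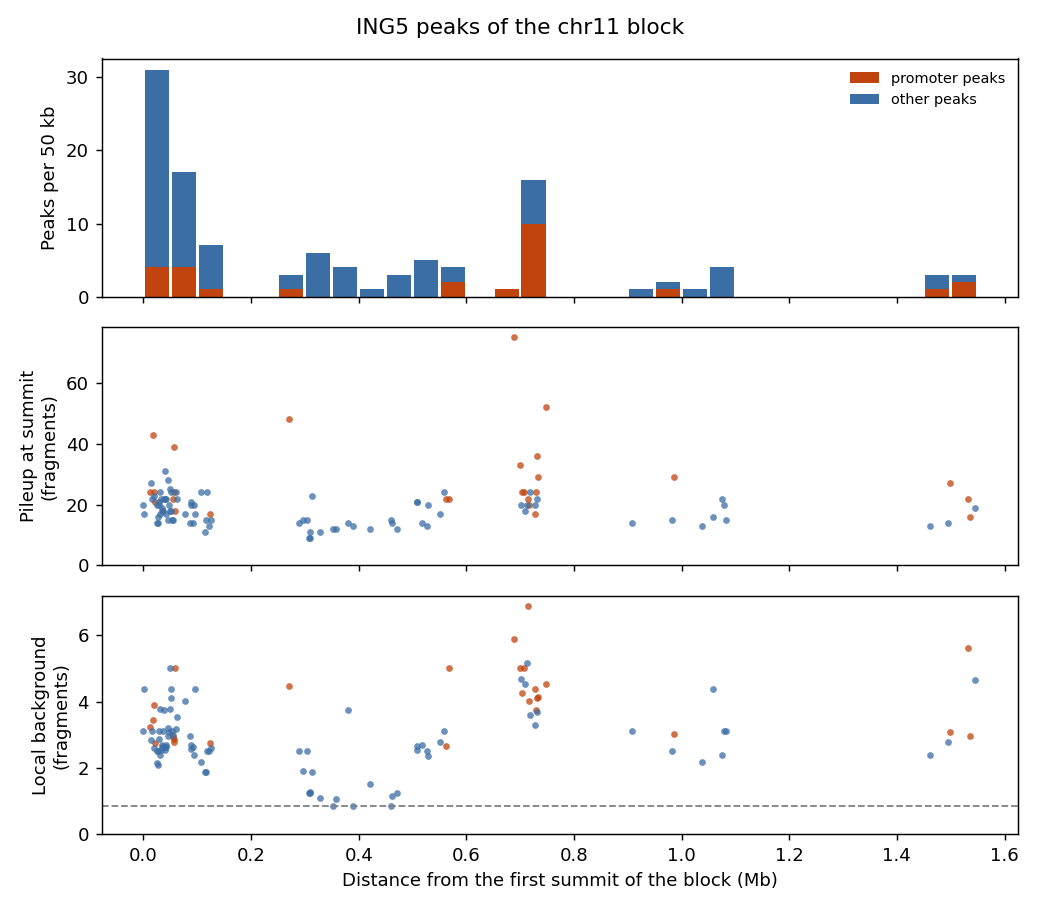
Peaks of the chr11 block by distance of the summit from the first summit (x axis, Mb): number per 50 kb (top), pileup in fragments (middle) and local background in fragments (bottom), promoter peaks in orange and other peaks in blue, with a dashed line at 0.853. OSBPL5 at the start of the block holds 38 of the 112 summits, and the tallest one, 75 fragments, is the shared promoter peak of NUP98 and PGAP2.

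OSBPL5, an oxysterol-binding protein relative that carries lipids between membranes, held more peaks than any other protein-coding gene of the list. Its 79.6 kb (chr11:3087107-3166739, minus strand) contained 38 summits at a median spacing of 1097 bp, 7 of them at annotated promoters of the gene. Their pileups ran from 14 to 43 fragments with a median of 21, over backgrounds of 2.1 to 5.01. The strongest, with 43 fragments (9.92-fold), lay 157 bases after an internal start and 38873 bases after the canonical one. The summits spanned 57.0 kb, from 3108608 to 3165566, and none lay in the stretch from 3087107 up to the first of them, at the 3′ end of the gene.

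The AHRR locus was the corresponding place on 5p. AHRR, the repressor of the aryl hydrocarbon receptor, held 21 summits in 116.6 kb (chr5:321714-438291, plus strand), the fourth most of all genes. The readthrough gene PDCD6-AHRR, which contains it, held 28, the second most. Pileups in AHRR ran from 9 to 41 fragments with a median of 13, over backgrounds of 0.951 to 2.50. Of the 21 summits, 3 were at promoters.

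Other genes of the tip of 5p had many summits without a promoter peak. PLEKHG4B, a guanine nucleotide exchange factor, and SLC9A3, a sodium/proton exchanger, held 9 each. TPPP, a tubulin-binding protein, held 8, SLC6A18, an amino acid transporter relative, held 7, and TERT, the telomerase catalytic subunit, held 6. None of these 5 genes had a promoter peak. SLC6A19, a neutral amino acid transporter, held 8, of which 1 was at its promoter with 14 fragments (7.83-fold). Median pileups in these 6 genes lay between 10 and 12 fragments.

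The share of genes with a promoter peak was 51.3% in the chr5 block (79 of 154, exact interval 43.1 to 59.4), against 31.7% (229 of 723, 28.3 to 35.2) on the rest of chromosome 5. In the chr11 block it was 29.3% (12 of 41, 16.1 to 45.5), against 27.1% (344 of 1268, 24.7 to 29.7) on the rest of chromosome 11. Over all protein-coding genes it was 30.9%. The chr11 block was therefore near the background in this respect and the chr5 block above it. A raised background sits under both blocks, and its part in the share of 5p was not tested.

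The gene lists that follow were drawn up with earlier results of these data known and do not hold every gene of their kind, so their counts describe the listed genes alone and are no evidence about a pathway. A promoter peak was found at 8 of 8 listed mitochondrial genes of 5p, against 51.3% of all genes of the block. The strongest peak of each gene gave 7 distinct peaks, because MRPL36 and NDUFS6 share one. AGXT2, a mitochondrial aminotransferase of the block that is not on the list, had none, and the summit nearest to its canonical TSS was 118 kb away. At the strongest promoter peak of each listed gene, pileups ran from 25 to 68 fragments and enrichments from 7.0-fold to 15.35-fold. MRPS30 (chr5:44808947-44820428, plus strand), a mitochondrial ribosomal protein, had the tallest promoter peak of the block, with 68 fragments over a background of 3.49 (15.35-fold) and rank 21 in the list by −log10 p. The peak shared by MRPL36, another mitochondrial ribosomal protein, and NDUFS6, a subunit of respiratory complex I, had 44 fragments over 2.18 (14.2-fold). FASTKD3, which acts on mitochondrial RNA, shared a peak of 39 fragments (12.6-fold) with MTRR, the methionine synthase reductase.

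The remaining mitochondrial genes had lower fold enrichments. SDHA, the flavoprotein subunit of succinate dehydrogenase, had 40 fragments (9.93-fold). NNT, the proton-translocating transhydrogenase, had 29 (8.75-fold). OXCT1, which activates ketone bodies, had 34 (7.36-fold), and AMACR, a racemase of branched-chain fatty acid oxidation, had 25 (7.0-fold).

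All 9 listed genes of RNA metabolism and translation had a promoter peak too. BRIX1, a ribosome assembly factor, shared a peak of 48 fragments over a background of 2.52 (13.9-fold) with RAD1, a subunit of the DNA damage checkpoint clamp. RPL37, a cytosolic ribosomal protein, had 42 fragments (12.3-fold) in a peak 2595 bp wide, the second widest of the block. The RNA-binding protein ZFR had 29 fragments (11.1-fold), the RNA methyltransferase NSUN2 had 25 (11.3-fold) and the coactivator SUB1 had 30 (8.47-fold). PAIP1, a partner of poly(A)-binding protein, had 31 (8.16-fold), and TARS1, the threonyl-tRNA synthetase, had 21 (6.25-fold). The lowest pileups were at DROSHA, the nuclease that starts microRNA processing, with 20 fragments (5.43-fold), and the poly(A) polymerase TENT4A, with 15 (7.04-fold). The TENT4A peak lay 71 bases after an internal start and 1428 bases after the canonical one. The summit nearest to the canonical TENT4A start had 29 fragments (14.3-fold). It lay 1082 bases before that start, just past the promoter limit.

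Of the 6 chromosome and cell cycle genes, 5 had a promoter peak. NIPBL, the cohesin loader, had 45 fragments over a background of 3.13 (11.1-fold). SKP2, an F-box protein, shared 35 fragments (10.4-fold) with LMBRD2, BRD9, a bromodomain protein, shared 26 (11.6-fold) with TRIP13, and the nucleoporin NUP155 had 27 (8.22-fold). TERT was the gene without one: the summit nearest to its canonical TSS was 15.7 kb away and had 11 fragments.

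Growth signalling genes had a promoter peak in 5 of 6 cases. GOLPH3, a Golgi phosphoinositide-binding protein, had 60 fragments over a background of 2.78 (16.1-fold). RICTOR, the defining subunit of mTOR complex 2, had 41 (9.02-fold), and PRKAA1, a catalytic subunit of AMP-activated kinase, had 26 (6.42-fold). DAB2 and PTGER4 were lower, at 18 (5.23-fold) and 16 (4.99-fold), and the haematopoietic adaptor FYB1 had none.

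Receptors were split, with a promoter peak at 3 of 6. OSMR, the oncostatin M receptor, had 65 fragments over a background of 3.57 (14.4-fold). LIFR, the leukaemia inhibitory factor receptor, had 32 (8.67-fold), and NPR3, the natriuretic peptide clearance receptor, had 13 (4.98-fold). GHR, PRLR and IL7R, the receptors for growth hormone, prolactin and interleukin 7, had none. The nearest summit was 447 kb, 300.3 kb and 68.2 kb from their canonical TSSs.

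No promoter peak was found at the 6 listed cadherin and catenin genes, CDH6, CDH9, CDH10, CDH12, CDH18 and CTNND2. The summit nearest to their canonical TSSs was between 338 kb (CDH6) and 1584 kb (CDH10) away. All but CTNND2 encode cadherins, membrane proteins of cell adhesion, and CTNND2 encodes a catenin that binds them.

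Of the 15 genes with the most significant promoter peaks of 5p, 5 were on no list, MTRR among them. AHRR had 41 fragments over a background of 1.33, which gave the highest enrichment at a promoter of the block, 18.03-fold. CMBL, a hydrolase, had 34 (12.7-fold), TRIO, a guanine nucleotide exchange factor, had 33 (12.8-fold), and BASP1, a membrane-associated signal protein, had 39 (10.3-fold). MRPS30 had more fragments than AHRR, over a higher background, and a lower fold enrichment.

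**Figure D4:**
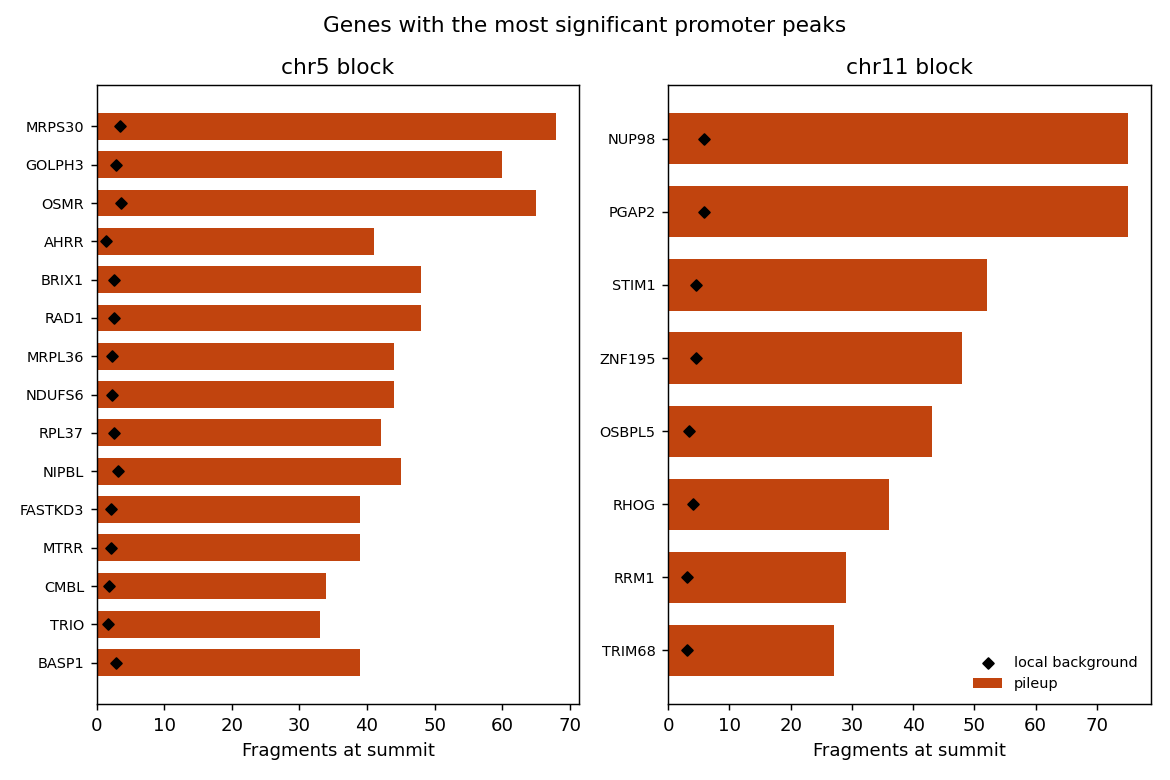
Pileup (bars) and local background (diamonds), both in fragments at the summit, of the genes with the most significant promoter peaks of the chr5 block (left, 15 genes) and of the chr11 block (right, 8 genes). Neighbouring genes with equal bars share 1 peak; pileups run from 33 to 68 fragments on the left and from 27 to 75 on the right.

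At 11p15.4, promoter peaks were found at 6 of 7 listed cellular genes, against 29.3% of all genes of the block. The latter share takes in 21 olfactory receptor genes, of which 2 had one. The strongest peak of each of these genes gave 5 distinct peaks. CARS1, the cysteinyl-tRNA synthetase, is not on the list and had none, with the nearest summit 51.2 kb from its canonical TSS. NUP98 (chr11:3671083-3797792, minus strand), a nuclear pore protein, and PGAP2, which acts in GPI anchor maturation, share 1 peak of 75 fragments over a background of 5.88 (11.05-fold), rank 31 of the list. Its summit lay 222 bases after the canonical start of NUP98. It lay 392 bases before an alternative start of PGAP2 and 11228 bases before the canonical one. The summit nearest to the canonical PGAP2 start had 33 fragments over 5.03 (5.64-fold). STIM1, the calcium sensor of the endoplasmic reticulum, had 52 fragments over 4.55 (9.55-fold), and ZNF195, a zinc finger protein, had 48 over 4.47 (8.96-fold). The small GTPase RHOG had 36 (7.22-fold) and RRM1, the large subunit of ribonucleotide reductase, had 29 (7.43-fold). TRIM21, an antibody-binding ubiquitin ligase, had none, and its relative TRIM68 had 27 (6.86-fold).

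PGAP2 and RHOG, which are neighbours, held further peaks along their bodies. PGAP2 held 8 summits in 28.6 kb with pileups of 18 to 33 fragments, over backgrounds of 4.02 to 6.89. The summit at 3823978 had 22 fragments over 6.89, the highest background of the chr11 block, and 2.92-fold enrichment. RHOG held 6 summits at a median spacing of 1256 bp.

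Olfactory receptor genes made up 21 of the 41 genes of the chr11 block, and 2 of them had a promoter peak (9.52%, 1.17 to 30.4). OR51E1 had 16 fragments over a background of 2.98 (4.27-fold), 81 bases after its start. OR51D1 had 22 over 5.64 (3.47-fold), 432 bases after an annotated start and 2670 bases after the canonical one. Both enrichments were below the block's median of 5.13. The other 19 receptors had none.

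Several of the strongest peaks outside protein-coding promoters lay around ANXA2R and ZNF131 on 5p. The most significant peak of the block, chr5:43065429-43068101, was in an intron of ZNF131, with its summit 1159 bases before the nearest protein-coding TSS and 945 bases from the start of the non-coding RNA ANXA2R-OT1. It had 57 fragments over a background of 1.62, or 22.2-fold, the highest enrichment of the block, ranked 17 in the list and was the widest of the block at 2673 bp. The peak chr5:43041332-43043528 had 51 fragments (14.8-fold), 25 bases from the start of the non-coding RNA ANXA2R-AS1 and 1012 bases from a start of ANXA2R. The peak starting at 42991217 had 38 fragments (12.02-fold), 24 bases from the start of an unnamed non-coding RNA. These 3 lay at starts of non-coding RNAs or just past the promoter limit, so the label of other peak rests on the annotation used.

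The next ones were at TENT4A and AHRR. The peak of 29 fragments (14.3-fold) named above had its summit 1082 bases before the canonical TENT4A start. In AHRR, chr5:370279-372625 had 32 fragments (12.2-fold), 26954 bases from the nearest start, and was 2347 bp wide. Of the 248 peaks outside protein-coding promoters in the chr5 block, 28 (11.3%) lay within 1000 bp of another annotated start, against 9 of 41 (21.95%) on the rest of chromosome 5. Of the 85 in the chr11 block, 7 (8.24%) did, against 13 of 74 (17.6%) on the rest of chromosome 11.

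The strongest peaks outside promoters in the chr11 block were weaker. OSBPL5 had 3 of the top 5 in its introns, with 31 fragments (9.06-fold), 28 (6.89-fold) and 27 (7.31-fold), the last being the widest of the block at 2282 bp. One of 23 fragments (8.34-fold) lay 189 bases from the start of the pseudogene FAM86GP, and one of 24 (7.87-fold) lay 3287 bases from the start of MRGPRG. All 5 were below the 11.05-fold of the NUP98 promoter peak.

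Genes of the blocks with a promoter peak had CpG-denser promoters than those without. RefSeq windows were matched for 135 of 154 genes on 5p and 35 of 41 at 11p15.4. The median ratio of observed to expected CpG dinucleotides was 0.852 in the 67 matched genes of the chr5 block with a promoter peak and 0.584 in the 68 without. It was 0.699 in 10 matched genes of the chr11 block with one and 0.180 in 25 without. Olfactory receptors made up 19 of the 29 genes of the chr11 block without one, so the classes there also differ in gene family. Over all genes the median ratio was 0.872 with a promoter peak and 0.674 without. No test was run on these ratios. The windows printed above include exceptions in both directions, with 0.954 at CTNND2, which had no peak, and 0.124 at OR51E1, which had one.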

How the data were processed

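One peak list of 1 ING5 ChIP library was used, called by the authors against 1 input library. Per the file headers, the caller was MACS2 2.1.1.20160309 on read pairs, with p at most 1e-05. They also give fragments of 183 bp and call the ChIP library by a name no label uses. Per the submitters' processing notes, fastp 0.19.6, Bowtie2 and deepTools were used. Pileup was deposited as coverage, the signal of whole fragments at a summit. Significance was deposited as −log10 of p and of q, and peaks were ranked by −log10 p because q is listed there as not calculated. Fold enrichment was deposited as a ratio on a linear scale. Columns of other samples numbered 0.

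The labels name GRCh37, but 6527 chromosomal summits (76.0%) had a protein-coding TSS within 1000 bp at its GRCh38 position and 1175 (13.7%) at its GRCh37 position, so positions were read as GRCh38. Gene positions are the GRCh38 ones that GENCODE 44 records for each exon, for 19819 protein-coding genes; 18 of 167 RefSeq genes of the chr5 block and 2 of 43 of the chr11 block had none. Local background is (pileup + 1) / fold enrichment − 1, with a pseudocount of 1. The headers state that the larger library was scaled down, but 0 pileups were fractional, and all 3392 raised backgrounds were whole multiples, within 1e-04, of input steps scaled by 1.25, the ratio of ChIP to input fragments.

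Rates have exact Poisson, shares exact binomial (Clopper-Pearson) and medians order-statistic 95% intervals. Named were the 15 (chr5) and 8 (chr11) genes with the most significant promoter peak, the strongest, widest and highest-background peaks, list members, ends of sub-blocks and peaks at the limits, of which 1 is not reported here. A few genes with many summits were named after their values were seen. Members and lists were chosen with earlier results of these data known. Python 3.11.15, pandas 2.3.3, numpy 2.4.6, SciPy 1.17.1 and matplotlib 3.10.9 were used, and the functions were tested on simulated data. Stricter peak sets, other promoter windows, limits and gaps were tried.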

Additional observations from a re-analysis of the deposited data

How the results depend on the processing

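No paired analysis was possible because each group has 1 library. Of 64 alternative values, 16 stayed within the interval or within 1.5 times the main count, and 48 moved. Stricter lists keep stronger peaks by construction. Peaks above the median −log10 p, peaks above the median fold enrichment and the 1000 most significant peaks left 139, 102 and 59 peaks in the chr5 block and 58, 24 and 10 in the chr11 block. In the same order, the chr5 block had a median pileup of 23, 26 and 32, a fold enrichment of 7.36, 8.07 and 10.03, a local background of 1.99, 1.90 and 2.50, a promoter share of 59.0%, 62.7% and 76.3%, and a raised background at 100%, 100% and 100% of peaks. The rest of chromosome 5 had promoter shares of 90.8%, 90.3% and 95.3% there. The chr11 block had a median pileup of 22, 24 and 37.5 and a fold enrichment of 6.19, 7.33 and 9.01. With the last 2 of these lists its local background was 2.57 and 3.24, its promoter share 37.5% and 70%, and its share over a raised background 87.5% and 100%. Without the pseudocount, background was 2.40 and 3.72 in the chr5 and chr11 block. Raised by at least 1.5 times, it held for 68.1% and 91.1%. With a promoter window of 200 bp, promoter shares were 10.8% and 8.93% and the share of 5p genes was 24.0%; with 3000 bp, promoter shares were 40% and 39.3%. Starts of all annotated genes gave 38.9% in the chr5 block, and canonical transcripts alone gave 10.7% in the chr11 block. Merging summits under 2000 bp apart left 59 peaks in the chr11 block, and limits 250 kb further in left 57. Gaps of 100 kb and 500 kb gave 5 and 1 sub-blocks there. The causes were not tested. Depth limits single peaks: the median pileup is 13 fragments on 5p, and a peak of so few fragments has a wide counting error.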

Other observations

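Short motifs were searched on both strands of the 300-base RefSeq promoter windows, with overlaps between motifs allowed. The GC box GGGCGG was present in 70.1% of the matched promoters of the chr5 block with a promoter peak and in 52.9% of those without, in 70% and 4% of those of the chr11 block, and in 73.1% and 52.6% over all matched genes with and without a promoter peak. Its share over all 27305 RefSeq promoters was 44.6%. The chr5 block was thus close to all genes in both classes. The ETS core CCGGAAG was present in 19.4% and 2.94% on 5p and in 10% and 4% at 11p15.4, in 21.7% and 10.8% over all matched genes, and in 10.7% of all promoters. CCAAT was present in 32.8% and 38.2% on 5p and in 60% and 32% at 11p15.4, in 36.5% and 36.5% over all matched genes, and in 35.7% of all promoters. TATAAA was present in 2.99% and 13.2% on 5p and in 0% and 52% at 11p15.4, in 5.26% and 11.7% over all matched genes, and in 11.95% of all promoters. The chr11 block has 10 matched promoters with a peak and 25 without, and most of its genes without a promoter peak are olfactory receptors. A match is only a match of letters.

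Promoter summits lay downstream of the nearest start in 64.3% of 112 promoter peaks of the chr5 block and 70.8% of 260 on the rest of chromosome 5. On chromosome 11 they did in 70.4% of 27 in the block and 78.9% of 346 outside it.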
